A study of Homo sapiens with 37 samples.

Results

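Zinc transporters and a metallothionein were examined in K562 cells with and without disruption of ZBTB7A. The set held 10 of the 32055 genes in the count table, chosen by name: 4 zinc importers of the SLC39 (ZIP) family, SLC39A6, SLC39A8, SLC39A10 and SLC39A14, 5 genes of the SLC30 (ZnT) family, SLC30A1, SLC30A5, SLC30A6, SLC30A7 and SLC30A9, and the metallothionein MT2A. K562 is an established human erythroleukemia line. The data were 37 bulk RNA libraries, 26 labelled KO and 11 labelled Control. KO cells had received Cas9 with 1 of 2 gRNAs against ZBTB7A, control cells the same vector without a gRNA, and both were grown from single sorted cells. The labels name a library only by its group and its well barcode of 6 bases, with no clone, gRNA or day, so p-values measure the spread between these libraries, some of which may be repeats of 1 clone.

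Free zinc in the cytosol is kept low. SLC39 proteins move zinc into the cytosol from outside the cell or from vesicles, and SLC30 proteins as a rule move it out, across the plasma membrane or into the Golgi and secretory vesicles, with SLC30A9 in mitochondria credited with moving zinc out of the matrix. Metallothioneins are small cysteine-rich proteins that bind zinc in the cytosol. The zinc sensor MTF1 binds metal response elements (MREs) and switches on metallothionein genes and SLC30A1 when zinc rises. Erythroid cells use zinc in carbonic anhydrase, in other enzymes and in zinc finger factors such as GATA1.

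Promoter sequence shows which members carry these elements. RefSeq promoters (GRCh38.p14, 250 bases before to 50 after a start) were matched for 9 of the 10 genes, with 12 windows, and SLC39A14 was not matched. MREs were searched as TGCACNC or TGCGCNC on both strands. MT2A held 8 of them, a number reached by 0.0199% of the 35116 promoters searched, and none of the 8 overlapped another. The 250 bases before its start are shown because 7 of the 8 lie there, in capitals.
MT2A, chr16:56608334-56608583, plus strand: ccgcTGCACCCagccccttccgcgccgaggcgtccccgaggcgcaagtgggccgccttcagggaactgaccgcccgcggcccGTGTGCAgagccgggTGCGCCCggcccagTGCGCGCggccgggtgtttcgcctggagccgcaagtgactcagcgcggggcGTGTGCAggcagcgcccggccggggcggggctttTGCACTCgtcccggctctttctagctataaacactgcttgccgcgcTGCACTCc
SLC30A1 held 2 MRE words, as 8.6% of promoters did or more, the first 49 bases before its start and the second just after it. Both read as the reverse complement on the gene's strand, in capitals.
SLC30A1, chr1:211579194-211579220, minus strand: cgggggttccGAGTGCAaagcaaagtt
SLC30A1, chr1:211579121-211579147, minus strand: agaccgggccGAGTGCAgctgccgtgg
SLC39A6, SLC30A6, 1 of the 2 windows of SLC39A10 and 1 of the 3 of SLC39A8 held 1 word each, as 29.6% of promoters held at least 1. SLC30A5, SLC30A7 and SLC30A9 held none in these windows.

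ZBTB7A is a zinc finger factor that can repress genes. The word GACCC, chosen as a ZBTB7A-type word, was searched as well, on both strands. Other words that ZBTB7A may bind were not searched. SLC39A6 and SLC30A1 held it 3 times each, as 5.17% of promoters did or more, and SLC30A9 2 times, as 17.3% did or more. Of the 3 windows of SLC39A8, 1 held it 2 times. The other 2 overlap and held the same single match, against 47.6% of promoters with at least 1. It was not found in the windows of SLC39A10, SLC30A5, SLC30A6, SLC30A7 or MT2A. The 3 matches of SLC39A6, 1 of the importers called lower in KO, are shown with the word in capitals, GGGTC being its reverse complement.
SLC39A6, chr18:36129570-36129590, minus strand: ccttacGACCCggctcccagc
SLC39A6, chr18:36129500-36129524, minus strand: tcgaggaaatGACCCccaactgctt
SLC39A6, chr18:36129403-36129427, minus strand: ccgggttccgGGGTCgcactgcgca
A match is a string of letters in a window and was not tested for binding.

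The method, SCRB-seq, reads the 3′ end of each poly(A) RNA and tags each molecule with a unique molecular identifier (UMI), so each UMI stands for 1 captured molecule and long transcripts gain no counts. Levels are log2 CPM, UMIs scaled to the library total after TMM with a prior count of 2. The totals were 563235 to 4710809 UMIs in control (median 3518944) and 1070250 to 4270901 in KO libraries (median 2030965). The shallowest was control library GTTTAT, where low counts have the largest counting error. AT-rich barcodes belonged to 12 KO and 8 control libraries, GC-rich ones to 12 KO libraries and 1 control library. The KO library GGCCAC stood near the control libraries for many genes, and its values are given with those of the members. ZBTB7A itself averaged 5.82 ± 0.29 (SD, n = 11) in controls and 5.95 ± 0.27 (SD, n = 26) with the KO label, which does not check the labels, since SCRB-seq counts 3′ ends and does not read the edit. Of 16 erythroid markers 15 were tested, 4 higher (ALAS2 by 1.41, EPOR by 0.97 and LMO2 by 0.51 called, and TAL1) and 3 lower in KO (GATA1, KLF1 and TFRC), and their summed level was 4507 to 9576 CPM in control and 3461 to 10350 CPM in KO libraries. Of the 24 myeloid, megakaryocyte and other markers, CD2, CD3E, CD14, COL3A1, GP6, PF4 and VWF were at or near 0, while EPCAM (log2 fold change -0.75) and CD33 (-0.66) were called lower and GP1BA (3.35) and ITGAM (1.23) higher in KO.

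All 10 members passed the filter on low counts, which left 10661 genes. By edgeR's quasi-likelihood test with Benjamini-Hochberg adjustment over all of these, 5 of the 10 members had an adjusted p below 0.05, where 33.8% of all tested genes did. Higher in KO were SLC39A8, SLC30A1 and SLC30A7, lower were SLC39A6 and SLC39A14. With an absolute log2 fold change above 0.5 as well, 3 of the 10 were called, SLC39A8 higher and SLC39A6 and SLC39A14 lower, against 10.2% of all tested genes (6.65% higher and 3.53% lower). The median log2 fold change was -0.01 over the members and -0.0046 over all tested genes. No member separated the groups without overlap, and 0.281% of all tested genes did. The two-sided permutation test of each difference in mean log2 CPM, unadjusted, gave p = 2e-05 for SLC30A7, 3e-05 for SLC39A6, 3.5e-04 for SLC39A8, 0.00126 for SLC39A14, 0.0178 for SLC30A5 and 0.0236 for MT2A. It gave 0.0717 for SLC30A1, 0.109 for SLC30A9, 0.294 for SLC39A10 and 0.353 for SLC30A6. Thus SLC30A1, SLC30A5 and MT2A fell on different sides of 0.05 in this test and in the adjusted edgeR test. The edgeR p before adjustment was 0.0155 for SLC30A1, 0.0331 for SLC30A5 and 0.0234 for MT2A, so without adjustment only SLC30A1 differed between the tests. Among AT-rich barcodes alone, 12 KO against 8 control libraries, the same 3 members were called, and with 1 control library no comparison was possible among GC-rich barcodes. In bulk RNA, fewer cells that express a gene and less of its RNA per cell cannot be told apart.

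**Figure D1:**
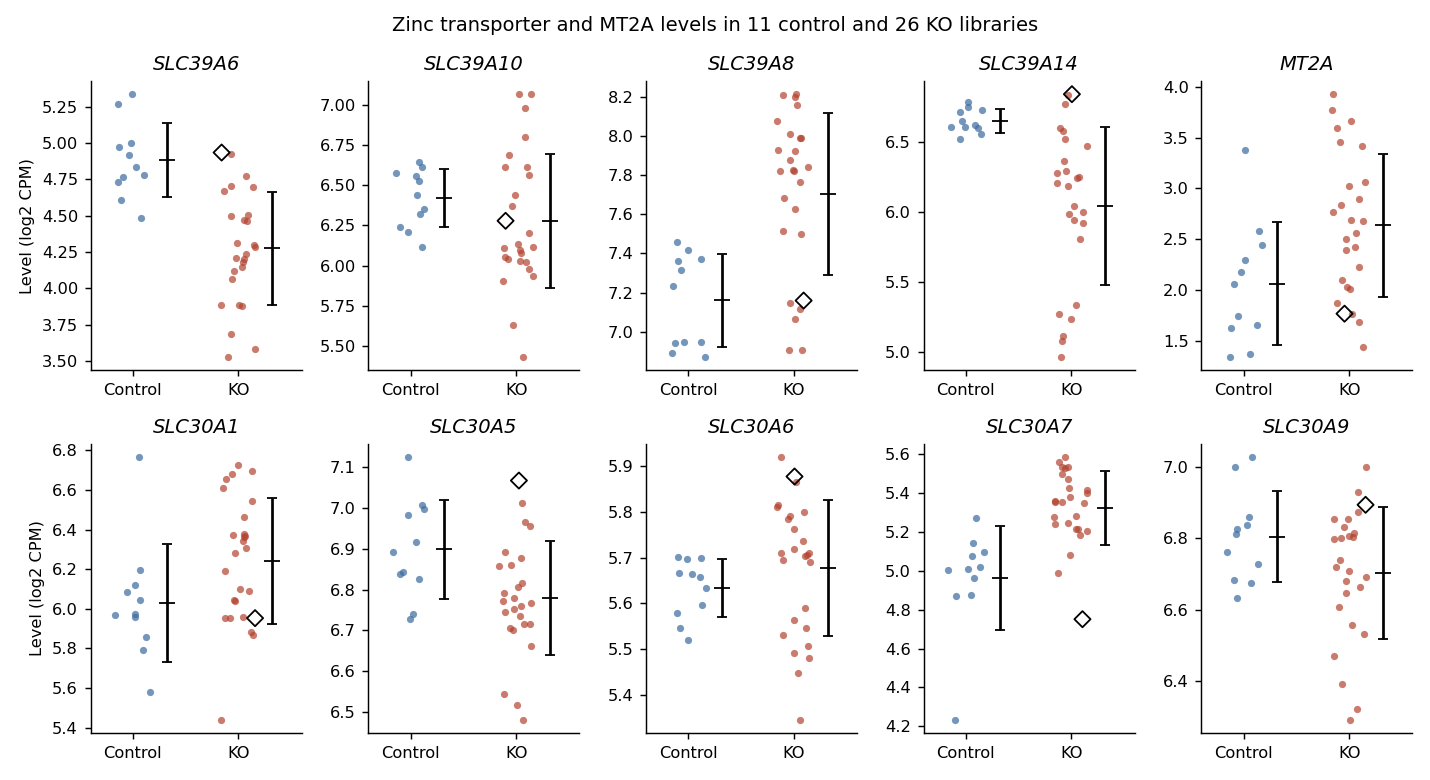
Each panel shows 1 gene, with the level in log2 CPM on the y axis (axes differ and do not start at 0) for 11 control libraries in blue and 26 KO libraries in red. The bar is the mean ± SD and the open diamond the KO library GGCCAC. For SLC39A8 20 KO points exceed every control point, and for SLC39A14 20 fall below all of them.

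Among the importers, SLC39A8 rose while SLC39A6 and SLC39A14 fell in KO libraries. SLC39A8 (ENSG00000138821, ZIP8) carries zinc, manganese and iron into the cytosol and sits on the minus strand, chromosome 4, 102251080 to 102431258 (GRCh38). Its lowest, median and highest levels were 6.87, 7.23 and 7.46 log2 CPM in control and 6.91, 7.82 and 8.21 in KO libraries. The 5 lowest control libraries lay between 6.87 and 6.95 and the other 6 between 7.23 and 7.46, while 20 of the 26 KO libraries lay above all of them. The mean went from 7.16 ± 0.24 (SD, n = 11) to 7.70 ± 0.41 (SD, n = 26), a log2 fold change, KO over control, of 0.57 (standard error, SE, 0.13, edgeR adjusted p = 8.48e-04), or 1.48-fold. It was between 0.52 and 0.64 under the other ways of processing, and passed in all of them. The KO library GGCCAC was at 7.16.

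SLC39A14 (ENSG00000104635, ZIP14), the closest relative of SLC39A8 and likewise a carrier of zinc, manganese and iron, sits on the plus strand, chromosome 8, 22367278 to 22434129. Its levels in control libraries were tight, with 6.52, 6.62 and 6.79 log2 CPM as lowest, median and highest, and in KO libraries they were 4.97, 6.20 and 6.84. Thus 20 KO libraries lay below every control, 2 lay above the highest, and GGCCAC with 6.84 was the highest of all. Controls averaged 6.65 ± 0.085 (SD, n = 11) and KO libraries 6.05 ± 0.56 (SD, n = 26). The log2 fold change was -0.51 (SE 0.15, edgeR adjusted p = 0.00739), or 0.70 of control. Its adjusted p stayed below 0.05 under every alternative, but its size lies at the fold threshold: it was -0.47 with library size alone, -0.45 with all libraries thinned to an equal depth, and less than 0.5 in size in 15 of the 37 fits without 1 library, down to -0.48. These were the fits without KO library 1, 2, 3, 4, 5, 8, 10, 13, 22, 24 or 25 or without control library 3, 6, 8 or 10, libraries being numbered 1 to 26 and 1 to 11 in the order of their barcodes. Among AT-rich barcodes alone it was -0.75.

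SLC39A8 and SLC39A14 split the KO libraries in a shared way. The widest gap between KO libraries in SLC39A8 was from 7.16 to 7.50, with 6 libraries below it (numbers 7, 9, 18, 19, 21 and 23, of which 18 is GGCCAC), and these 6 had SLC39A14 at 6.47 to 6.84, within or close to the control range. The widest gap in SLC39A14 was from 5.34 to 5.81, and the 6 libraries below it (numbers 4, 5, 10, 22, 24 and 25) had SLC39A8 at 7.87 to 8.21. The other 14 had SLC39A8 at 7.50 to 8.21 and SLC39A14 at 5.81 to 6.60. Because the libraries fall apart in this way, no correlation over all KO libraries is given. The sets were read off the same values and are a description, with no test. Some marker genes moved with them. The summed level of the 5 megakaryocyte markers in the table was 38.6 to 60.3 CPM in the 6 libraries low in SLC39A14, 2.69 to 22.6 CPM in the 14, 4.71 to 10.4 CPM in the 6 low in SLC39A8 and 0.767 to 8.24 CPM in controls. GP1BA was the 1 of these markers that passed the filter on low counts. ITGA2B, under the filter, had 0 to 19 UMIs per control and 0 to 41 per KO library. PF4, GP6 and VWF were at or near 0, so the sum rests on GP1BA and ITGA2B. The median of the 5 markers was -0.352 log2 CPM, the level of a count of 0, in all 6 libraries low in SLC39A14. The 15 erythroid markers summed to 7487 to 8498 CPM in the libraries low in SLC39A14, 4601 to 10350 CPM in the 14, 3461 to 5252 CPM in those low in SLC39A8 and 4507 to 9576 CPM in controls, so 5 of the 6 libraries low in SLC39A8, all but GGCCAC, held the lowest erythroid sums of the experiment. HBG1 and HBG2, at a mean of 1930 and 2548 CPM in controls, weigh most in this sum. The median level of the 15 markers was 8.036 to 8.305 log2 CPM in the libraries low in SLC39A14, above every other library. It was 6.662 to 7.607 in the 14, 6.691 to 7.384 in those low in SLC39A8 and 7.191 to 7.855 in controls. The 7 myeloid markers summed to 63.6 to 76.8, 41.7 to 94.5 and 56.4 to 100.9 CPM in the same order, against 84.2 to 114.8 CPM in controls. The part of these markers in the values of SLC39A8 and SLC39A14 was not tested.

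**Figure D2:**
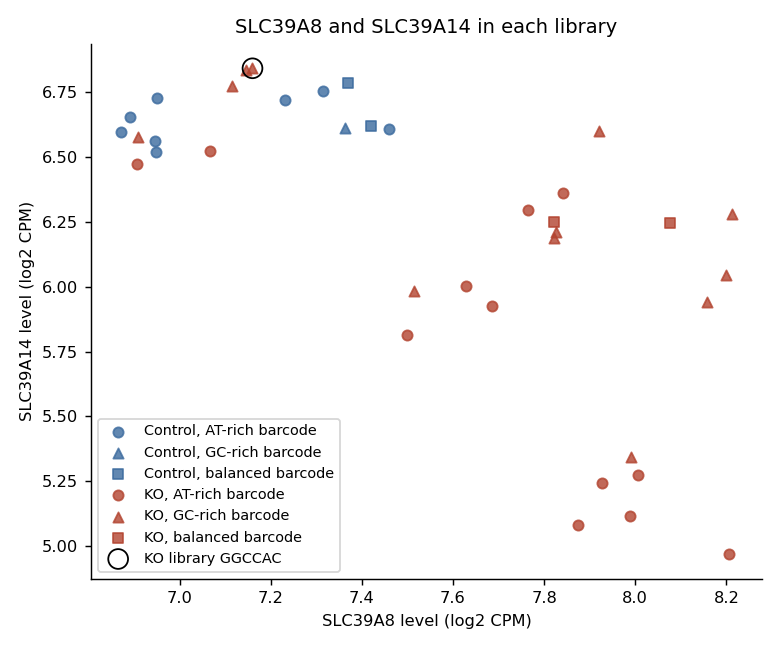
Each point is 1 library, with SLC39A8 on the x axis and SLC39A14 on the y axis, both in log2 CPM, blue for control and red for KO, and the shape giving the barcode class. All 11 control libraries and 6 KO libraries sit at the upper left, and 6 KO libraries at the lower right with SLC39A14 at 5.34 or less.

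The same 6 KO libraries low in SLC39A8 were also the 6 lowest KO libraries in SLC30A1, at 5.44 to 5.95 log2 CPM against 5.96 to 6.73 in the other 20. They were 6 of the 7 highest in SLC39A14 and 4 of the 6 highest in SLC39A6. In the other members fewer of them stood at either end. Of the 6 lowest and the 6 highest KO libraries they were 2 and 1 in SLC30A7, 2 and 2 in SLC30A5 and 1 and 3 in MT2A. They were 1 and 0 in SLC39A10, 0 and 2 in SLC30A6 and 0 and 1 in SLC30A9. This was noticed in the values and was not tested.

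SLC39A6 (ENSG00000141424, ZIP6) is a plasma membrane importer that pairs with SLC39A10, and sits on the minus strand, chromosome 18, 36108531 to 36129385. The lowest, median and highest levels were 4.49, 4.84 and 5.34 log2 CPM in control and 3.53, 4.26 and 4.94 in KO libraries, from a median of 94 and 40.5 UMIs. No KO library exceeded the highest control and 18 of 26 lay below the lowest, with GGCCAC the highest KO library at 4.94. Controls averaged 4.88 ± 0.26 (SD, n = 11) and KO libraries 4.28 ± 0.39 (SD, n = 26), at a log2 fold change of -0.55 (SE 0.12, edgeR adjusted p = 2.63e-04), or 0.68 of control. It was called in every fit without 1 library and under all 11 other ways of processing.

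SLC39A10 (ENSG00000196950, ZIP10), the partner of SLC39A6, sits on the plus strand, chromosome 2, 195575977 to 195737702. Its levels were 6.12, 6.44 and 6.64 log2 CPM in control and 5.43, 6.12 and 7.07 in KO libraries. KO libraries spread to both sides, 5 exceeding all controls and 12 falling short of all. Controls averaged 6.42 ± 0.18 (SD, n = 11) and KO libraries 6.28 ± 0.42 (SD, n = 26), at a log2 fold change of -0.07 (SE 0.13, edgeR adjusted p = 0.728). SLC39A6 and SLC39A10 correlated with r = 0.327 (Spearman's rho 0.378, n = 26) in KO and 0.489 (rho 0.373, n = 11) in control libraries, with permutation p values of 0.104 and 0.128 for r and 0.0562 and 0.262 for rho, none below 0.05 (0.299, 0.299, 0.197 and 0.438 after adjustment over 7 relations). Without the 2 libraries farthest from the median of SLC39A6 r was 0.311 and 0.213, and among AT-rich barcodes 0.467 and 0.415, with 0.306 among GC-rich KO barcodes.

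As a share of the UMIs of the 4 importers, SLC39A8 made up 34.4% to 47.6% in control libraries (median 41.8%) and 39.2% to 72.8% in KO libraries (median 52.9%). SLC39A14 went the other way, with 24.7% to 31.0% (median 28.0%) in control and 7.38% to 32.3% (median 17.3%) in KO libraries. SLC39A6 had a median of 7.96% in control and 4.64% in KO, and SLC39A10 of 23.8% and 21.2%. The importers together held 332 to 392 CPM in control and 291 to 493 CPM in KO libraries, and the 5 SLC30 genes 347 to 424 and 331 to 446 CPM. Of the summed CPM of the 4 importers and these 5 SLC30 genes, the importers were 45.5% to 51.5% in control libraries (median 49.4%). In KO libraries they were 44.6% to 53.6% (median 50.3%), so the groups overlapped in this share. The other SLC39 genes were left out of it and held a mean sum of 267 CPM in control and 287 CPM in KO libraries. The share therefore does not describe the whole families. The shares were not tested.

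Of the SLC30 genes, SLC30A7 and SLC30A1 rose in KO libraries by less than the fold threshold, and the other 3 did not pass the test. SLC30A7 (ENSG00000162695, ZnT7), which moves zinc from the cytosol into the Golgi, sits on the plus strand, chromosome 1, 100896076 to 100981757. Its levels were 4.23, 5.01 and 5.27 log2 CPM in control and 4.75, 5.35 and 5.59 in KO libraries. Above the highest control were 17 KO libraries and GGCCAC was the lowest KO library, while the lowest control value, in GTTTAT, rested on 10 UMIs. The mean rose from 4.96 ± 0.27 (SD, n = 11) to 5.33 ± 0.19 (SD, n = 26), a log2 fold change of 0.33 (SE 0.07, edgeR adjusted p = 3e-04), or 1.26-fold. Without GTTTAT it was 0.30 (adjusted p = 4.96e-04), and with all libraries thinned to an equal depth it was 0.19 and no longer passed (adjusted p = 0.321).

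SLC30A1 (ENSG00000170385, ZnT1), the plasma membrane exporter whose promoter MREs are shown above, sits on the minus strand, chromosome 1, 211571568 to 211579161. The levels were 5.58, 5.97 and 6.77 log2 CPM in control and 5.44, 6.29 and 6.73 in KO libraries. GTTTAT was the highest of all 37 libraries and no KO library exceeded it, while 14 KO libraries lay above the 10 other controls, the highest of which was at 6.20. Controls averaged 6.03 ± 0.30 (SD, n = 11) and KO libraries 6.24 ± 0.32 (SD, n = 26), at a log2 fold change of 0.27 (SE 0.11, edgeR adjusted p = 0.0467), or 1.21-fold. This adjusted p is at the edge of 0.05. It was 0.0536 with DESeq2, 0.154 without a filter on low counts, 0.0768 among AT-rich barcodes and 0.35 after thinning, where the log2 fold change was 0.15. In 22 of the 37 fits without 1 library it was 0.05 or more, up to 0.104. It was below 0.05 in the 15 fits without KO library 4, 5, 7, 8, 9, 18, 19, 20, 21, 22, 23 or 24 or without control library 5, 7 or 10. The lowest was 0.0149 without control library 7 (GTTTAT).

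SLC30A5 (ENSG00000145740, ZnT5) and SLC30A6 (ENSG00000152683, ZnT6) form a heterodimer that loads zinc into the early secretory pathway. SLC30A5 (plus strand of chromosome 5, 69093991 to 69131069) was at 6.73, 6.89 and 7.13 log2 CPM in control and 6.48, 6.77 and 7.07 in KO libraries. Below the lowest control were 8 KO libraries, and GGCCAC at 7.07 was the highest of the KO libraries. Its log2 fold change was -0.11 (SE 0.05, edgeR adjusted p = 0.0836). It passed with barcode class as a covariate (adjusted p = 0.0186), with surrogate variables (0.0353) and without GGCCAC (0.0422). An antisense gene overlaps its 3′ end and the strand setting of the counting is not given in the sources used here, so reads of the 2 genes may be mixed.

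SLC30A6 (plus strand of chromosome 2, 32165841 to 32224379) was at 5.52, 5.66 and 5.70 log2 CPM in control and 5.35, 5.71 and 5.92 in KO libraries. The control range was narrow, with 15 KO libraries above it and 5 below. The log2 fold change was 0.05 (SE 0.05, edgeR adjusted p = 0.493). The correlation of SLC30A5 with SLC30A6 was r = 0.03 (n = 26, rho 0.175, permutation p = 0.882 and 0.391) in KO and -0.743 (n = 11, rho -0.718, permutation p = 0.00883 and 0.0162) in control libraries. After adjustment over 7 relations the control values did not pass (0.0618 and 0.113), but this leaves out 1 planned relation, as described below. The control r was -0.512 without the 2 control libraries farthest from the median of SLC30A5, -0.594 without GTTTAT and -0.816 among 8 AT-rich barcodes. The KO value was -0.02 without its 2 farthest libraries, 0.243 among AT-rich and -0.12 among GC-rich barcodes.

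SLC30A9 (ENSG00000014824, ZnT9), the mitochondrial member, sits on the plus strand, chromosome 4, 41990502 to 42090461. Its levels were 6.63, 6.81 and 7.03 log2 CPM in control and 6.29, 6.73 and 7.0 in KO libraries, with 7 KO libraries below the lowest control. The log2 fold change was -0.09 (SE 0.06, edgeR adjusted p = 0.255), and with 7 surrogate variables as covariates it was -0.11 and passed (adjusted p = 0.0303).

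MT2A (ENSG00000125148) sits on the plus strand, chromosome 16, 56608584 to 56609497 and had few molecules, 1 to 44 UMIs per control and 3 to 39 per KO library. Its levels were 1.34, 2.05 and 3.38 log2 CPM in control and 1.44, 2.62 and 3.93 in KO libraries, with 6 KO libraries past the highest control. Controls averaged 2.06 ± 0.61 (SD, n = 11) and KO libraries 2.64 ± 0.71 (SD, n = 26). The log2 fold change of 0.62 (SE 0.26) did not pass (edgeR adjusted p = 0.0641). It passed with surrogate variables (0.72, adjusted p = 0.0029) and in 5 of the 37 fits without 1 library, those without KO library 3, 5, 18 or 25 or without control library 3, the last giving 0.90 (adjusted p = 0.00839). Among AT-rich barcodes alone it was 0.26 (adjusted p = 0.606). The 12 KO libraries with GC-rich barcodes had a mean of 2.91 ± 0.72 (SD) and the 12 with AT-rich barcodes 2.32 ± 0.64 (SD), beside 2.09 ± 0.65 (SD) in the 8 control libraries with AT-rich barcodes. With the barcode class as a covariate the log2 fold change was 0.47 and did not pass (adjusted p = 0.212).

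MT1A, the only other metallothionein that passed the filter on low counts of 11 on the list, went the other way. It was at 1.37, 3.21 and 4.01 log2 CPM in control and -0.35, 1.82 and 2.89 in KO libraries, from medians of 25 and 6 UMIs. The lowest control, GTTTAT, rested on 1 UMI. Below it were 8 KO libraries, 2 of them without any UMI, and no KO library exceeded the highest control. Its mean went from 3.05 ± 0.71 (SD, n = 11) to 1.74 ± 0.97 (SD, n = 26), at a log2 fold change of -1.39 (SE 0.27, edgeR adjusted p = 9.29e-05) and -1.66 to -1.33 under the alternatives. MT2A was 15.8% to 50% of the UMIs of the 2 genes in control (median 31.5%) and 36.4% to 100% in KO libraries (median 68.8%), with 19 of 26 KO libraries past every control and GGCCAC at 41.7%. The ends rest on few molecules. The control value of 50% was GTTTAT with 2 UMIs of both genes, the next highest control being at 41.38%. The KO values of 100% were CCCTGG with 7 UMIs and TGTTTA with 4. Summed over libraries, control held 145 UMIs of MT2A and 309 of MT1A, and KO 383 and 199. Metallothionein transcripts are near copies of each other, so the split of reads between the 2 genes is uncertain. Of the others, MT1E, MT1G and MT4 were under the filter and 7 were not analysed here.

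**Figure D3:**
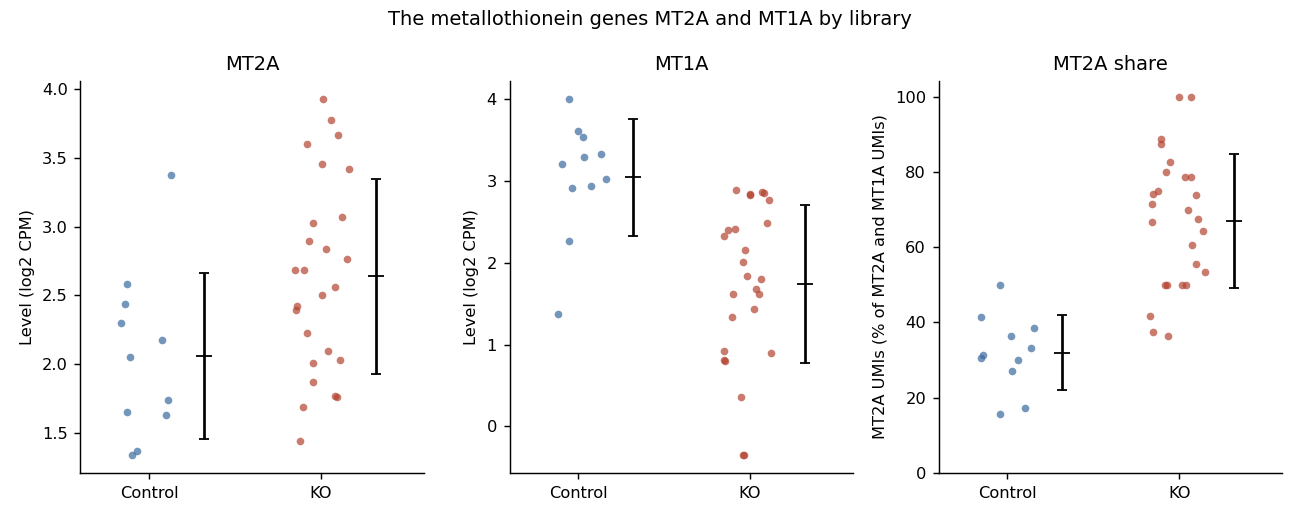
The left and middle panels plot the level of MT2A and MT1A in log2 CPM, the right panel MT2A UMIs as a percent of the UMIs of both genes, for each control (blue) and KO (red) library, with mean ± SD. The share of MT2A has a median of 31.5% in control and 68.8% in KO libraries.

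For MT2A and SLC30A1, both known MTF1 targets, r was -0.162 (n = 26, rho -0.092, permutation p = 0.429 and 0.653) in KO and -0.29 (n = 11, rho -0.391, permutation p = 0.368 and 0.237) in control libraries. Without the 2 libraries farthest from the median of MT2A r was -0.06 in KO and -0.449 in control libraries, the control value being 0.037 without GTTTAT alone, and among AT-rich and GC-rich KO barcodes it was 0.274 and -0.481 (12 libraries each). SLC39A8 and SLC39A14 had r = 0.322 (rho 0.336, permutation p = 0.329 and 0.313) over the 11 control libraries, 0.297 without the 2 farthest from the median of SLC39A8 and 0.351 among 8 AT-rich barcodes. None of these 7 relations, over 4 pairs of members, passed after adjustment, the smallest adjusted p being 0.0618. The relation of SLC39A8 with SLC39A14 in KO libraries had been planned too. It was left out once the split described above had been seen, so the adjustment does not cover it. The adjusted p of 0.0618 depends on this omission and could fall below 0.05 with that relation included. The same split runs through SLC30A1 and, in part, SLC39A6. For the pairs with these genes the permutation p in KO treats libraries that fall into sets as interchangeable. The other pairs of members were not tested. MTF1 itself averaged 4.23 ± 0.14 (SD, n = 11) in controls and 3.97 ± 0.35 (SD, n = 26) with KO, a log2 fold change of -0.23 (SE 0.11, edgeR adjusted p = 0.106).

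By level in control libraries the order was SLC39A8, SLC30A5, SLC30A9, SLC39A14, SLC39A10, SLC30A1, SLC30A6, SLC30A7, SLC39A6 and MT2A, from 7.16 to 2.06 log2 CPM. The ranges of neighbours overlapped at each step but from SLC30A6 to SLC30A7 and from SLC39A6 to MT2A. In KO libraries SLC39A14 moved from the fourth to the sixth place, behind SLC39A10 and SLC30A1, and the other places kept their order. These levels do not depend on transcript length but still depend on how well each 3′ end was captured.

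Of the 10 other SLC39 genes 5 were tested, 1 higher, 1 lower and 3 not passing. SLC39A1 (ZIP1), a plasma membrane importer, rose by 0.48 (SE 0.06, edgeR adjusted p = 6.5e-08) from 6.86 ± 0.20 (SD, n = 11) to 7.33 ± 0.16 (SD, n = 26) log2 CPM, the smallest adjusted p among the zinc transporters tested. SLC39A4, the intestinal importer, went from 6.43 ± 0.20 to 5.99 ± 0.28 at a log2 fold change of -0.39 (edgeR adjusted p = 4.11e-04). Of 5 other SLC30 genes none passed the filter on low counts. Of 9 genes of zinc sensing and use 6 were tested, 2 higher, 1 lower and 3 not passing. The zinc enzyme CA2, a carbonic anhydrase, had 1 to 15 UMIs in control and 2 to 105 in KO libraries at a log2 fold change of 3.12 (SE 0.67, edgeR adjusted p = 4.44e-04). It was 1.69 with surrogate variables (adjusted p = 7.42e-08) and 2.26 with limma-voom (adjusted p = 0.0239). TMEM163, a zinc efflux protein, had 0 to 9 and 0 to 46 UMIs and a log2 fold change of 2.68 (SE 0.63, adjusted p = 0.00122). TMEM163 did not pass with limma-voom (1.61, adjusted p = 0.0818), was 1.63 with surrogate variables (adjusted p = 2.63e-05) and had no value after thinning. SOD1, the zinc and copper enzyme, was the lower one (-0.27, adjusted p = 1.72e-06).

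Among 21 transporters of other metals 20 were tested, 3 higher, 6 lower and 11 not passing, with a median log2 fold change of 0.046. SLC41A2, a magnesium transporter, was called higher (log2 fold change 0.90), but among AT-rich barcodes alone it was 0.51 and did not pass (adjusted p = 0.134). Called lower were SLC11A1 (-1.52), a manganese and iron transporter of phagosomes, ATP7B (-0.91), a copper exporting ATPase, and SLC40A1 (-0.88), the iron exporter ferroportin. ATP7B and SLC40A1 were below the lowest control in 25 and 24 of 26 KO libraries, and GGCCAC was at 5.38 and 6.40 log2 CPM, the highest KO library in both.

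**Figure D4:**
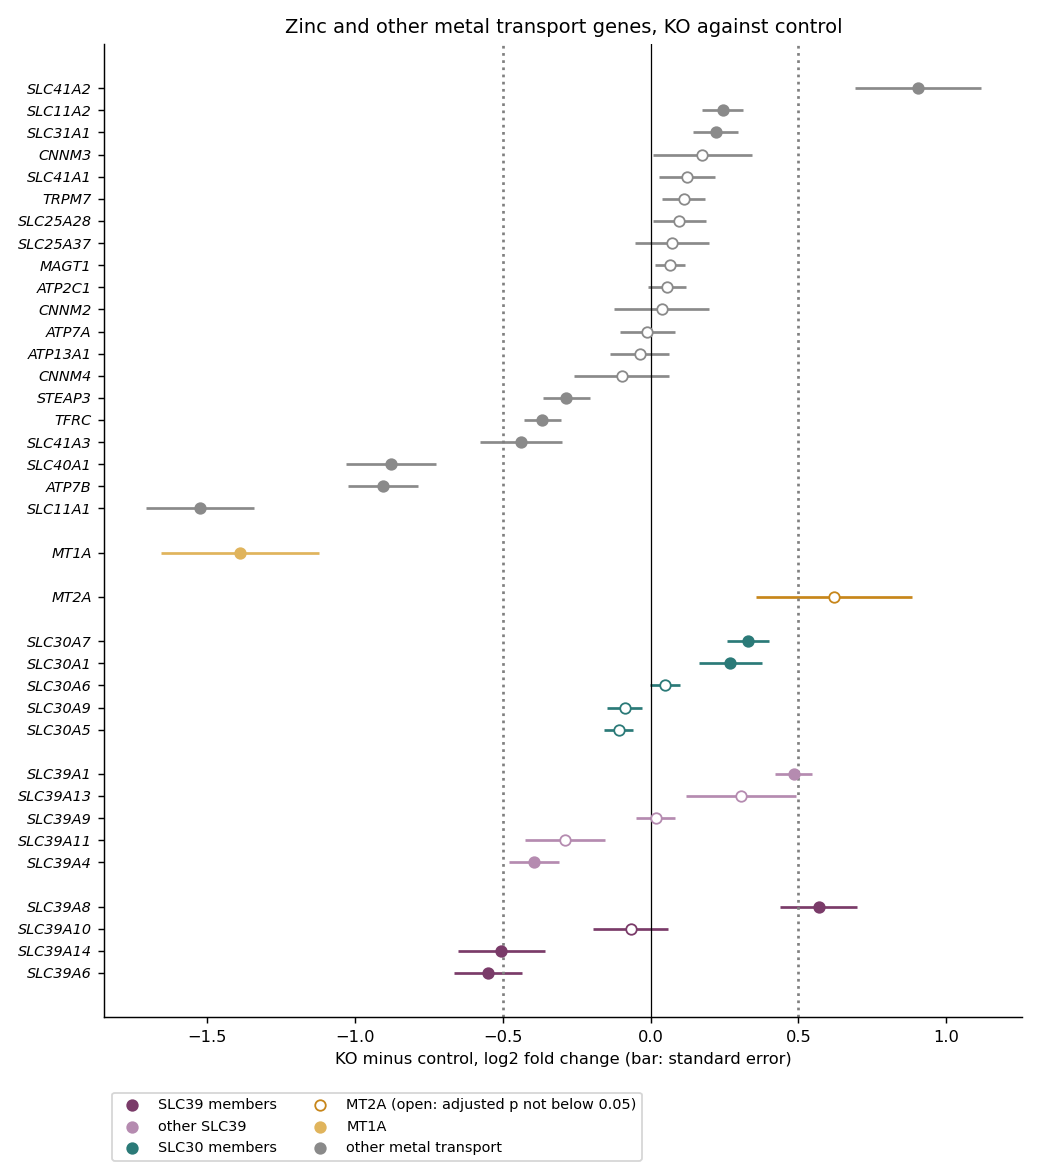
Log2 fold change of KO against control on the x axis, with its standard error, for the members and the other transporters tested, by group. Filled points have an adjusted p below 0.05, open points do not, and dotted lines mark 0.5 in either direction. SLC39A8 and SLC39A1 lie on the right, SLC39A6, SLC39A14 and SLC39A4 on the left, and the SLC30 genes within 0.33 of 0.

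The genes whose levels over the 37 libraries were most like those of the called members, after centring each gene on its group mean, were searched among 8605 genes at a mean of 10 CPM or more. For SLC39A14 they were LITAF (r = 0.946), KIF1A (0.908) and COLGALT2 (0.907). For SLC39A8 they were DCAF10 (0.88), HEMGN (0.88) and CHST2 (0.848), and for SLC39A6 GFOD1 (0.693), HES6 (0.685) and SET (0.666). Being the highest of many, these values are a description. The points share cells, handling and depth and, among KO libraries, the split described above, and the part of these was not tested.

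**Figure D5:**
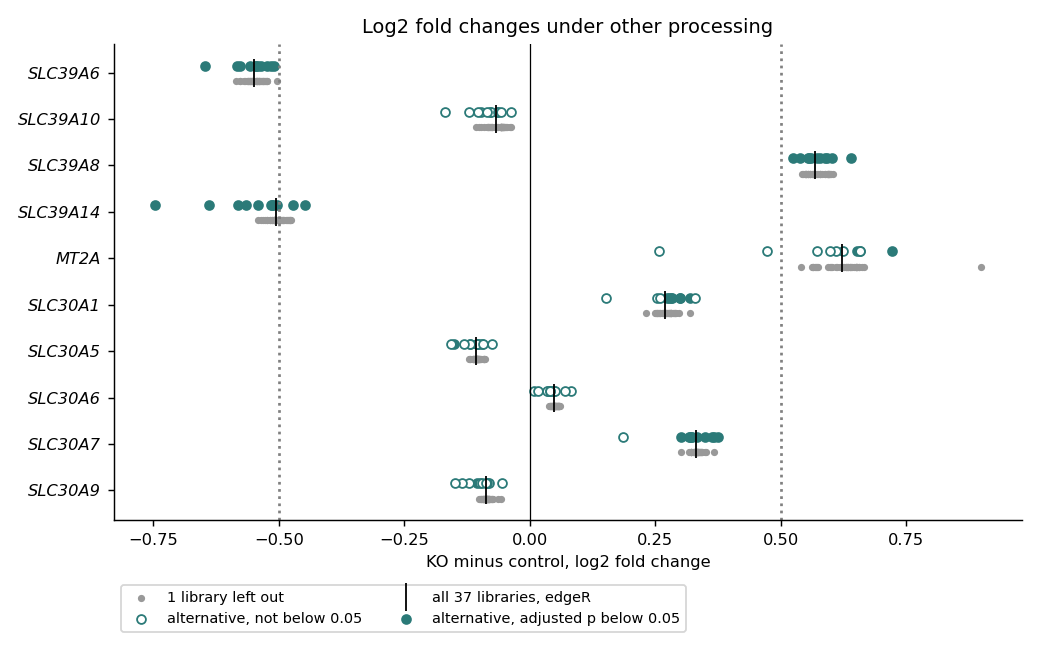
Log2 fold change of each member on the x axis under other processing (circles, filled where the adjusted p is below 0.05) and with 1 library left out (grey dots), beside the value over all 37 libraries (vertical bar). No member changes sign, SLC39A14 straddles -0.5, and MT2A is the widest, from 0.26 to 0.90.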

How the data were processed

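Bulk SCRB-seq libraries of the K562 line, 26 KO and 11 control, were analysed. The authors aligned reads to hg38 with STAR (2.6.0a in the submitters' processing notes), obtained UMI counts for Ensembl GRCh38.84 genes through zUMIs and deposited them raw, 32055 genes by identifier. Each column carries a barcode and was matched by it to its sample. Symbols and positions are from GENCODE 44 on GRCh38, which named 31323 of the identifiers.

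The deposited counts were fitted in R 4.3.3 by edgeR 4.0.16 (filterByExpr, TMM, robust quasi-likelihood test with group as sole term), and p was adjusted by Benjamini-Hochberg over 10661 genes. A call needed an adjusted p under 0.05 plus a log2 fold change beyond 0.5 in either direction. SE is the size of the log2 fold change over the root of F. The study's own test was limma, an alternative here. Permutation tests were two-sided with 100000 resamples. The alternatives were limma-voom 3.58.1, DESeq2 1.42.0, RLE scaling, scaling by library size only, omission of the filter, barcode class or 7 surrogate variables (sva 3.50.0) as covariates, AT-rich barcodes only, leaving out GGCCAC or each library including GTTTAT, and thinning to 563235 UMIs. A barcode was AT-rich or GC-rich by the majority of its bases. Libraries of a group differed beyond sampling noise in all 380 pairs (smallest chi-square per degree of freedom 1.14), so none were merged, but this covers counting error only and does not show that libraries came from separate clones. The fit was checked on simulated counts.

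The members and gene lists were chosen with earlier results of these data known. Named are all members, list genes called at both thresholds (where a list had none, that with the smallest adjusted p) and the 3 genes most like each called member. SLC39A4, SOD1, other list genes past p alone, genes under the filter and the split of the KO libraries were named after their values were seen.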

Additional observations from a re-analysis of the deposited data

How the results depend on the processing

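Over the 10 members, 98 of 109 values under other processing kept the direction and the side of the threshold of an adjusted p of 0.05, 6 gained the threshold, 5 lost it and 0 reversed. With each library left out in turn, 342 of 370 did, 22 lost it, each of them SLC30A1, and 6 gained it. MT2A had no value after thinning. Genes called numbered 1085, but 1720 without a filter on low counts and 614 after thinning to an equal depth, and 1044 to 1126 with 1 library left out. Members called were 3, but 2 with library size alone and after thinning (SLC39A14 lost) and 4 with surrogate variables and without GGCCAC (MT2A gained), and 2 to 4 with 1 library left out. Members with an adjusted p below 0.05 were 5, but 8 with surrogate variables and 3 after thinning, where fewer molecules remained, and 4 to 7 with 1 library left out. Thinning was a single random draw. The cause of these moves was not tested. The median over all tested genes moved to at most 0.0282 (log2) under any scaling. Depth limits MT2A and the low metallothionein and SLC30 counts. No paired analysis was possible because the labels carry no replicate numbers.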

Other observations

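The 5 SLC30 genes that did not pass the filter on low counts held few molecules but were not all at 0. SLC30A10, a zinc and manganese exporter, had 1 to 13 UMIs per control and 2 to 20 per KO library, and its level was 1.44 ± 0.68 (SD, n = 11) and 2.10 ± 0.71 (SD, n = 26) log2 CPM, with 8 KO libraries above the highest control. SLC30A2, a vesicular exporter, had 0 to 2 and 0 to 9 UMIs, and 12 KO libraries lay above the highest control. SLC30A3, which loads zinc into synaptic vesicles, had 0 to 6 and 0 to 13 UMIs with 11 KO libraries above the highest control. SLC30A8, known from insulin granules, had 1 to 5 UMIs in control and 0 to 3 in KO libraries, with 11 KO libraries below the lowest control. SLC30A4 had at most 1 UMI in control and 2 in KO libraries. Summed, the 5 genes held 4.54 ± 1.68 CPM (SD, n = 11) in control and 8.18 ± 4.34 CPM (SD, n = 26) in KO libraries, and the ranges of 2.05 to 7.88 and 3.99 to 19.5 CPM overlapped. SLC30A2 had a median of 1 UMI in both groups, and SLC30A8 of 2 in control and 1 in KO libraries. KO libraries were shallower (median 2030965 against 3518944 UMIs), so 1 UMI often stood for a higher level in them. The part of depth in these differences, and the differences themselves, were not tested.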
